A study of Arabidopsis thaliana with 7 samples.

Results

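Wild-type Arabidopsis thaliana roots exposed to the steroid dexamethasone for 1 h were compared with wild-type roots that received none. The comparison used the 4 wild-type arrays out of the 7 arrays of the study, chosen by their labels: 2 untreated and 2 treated, with 1 array of each kind in replicate 1 and in replicate 2. In the study the wild type served beside a line that expresses ANR1, a MADS-box factor linked to lateral root growth in nitrate, fused to the rat glucocorticoid receptor under the 35S promoter. That line (C24 background, labelled as the ANR1-GR line here, 2 untreated arrays and 1 treated array) entered the statistical fit to help estimate the spread between arrays.

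The wild type carried no transgene and is recorded under the stock code N906, with an ecotype field that reads only "Control". All plants of the study, treated or not, were starved of nitrogen for 2 days, and after 9 days they were moved for 1 h to MS agar with dexamethasone at 0 or 1 µM, at 25 C in a growth room. Each array held root RNA pooled from 20 plants, and the labels give 2 biological replicates. The control plants were therefore moved to a fresh plate as well. The labels do not say whether their plate carried the solvent of the steroid.

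Dexamethasone is a synthetic glucocorticoid. In animals it binds the glucocorticoid receptor, which waits in the cytoplasm with heat shock chaperones, enters the nucleus once the steroid is bound, and switches genes on or off. Plants have no such receptor, and the steroid is used in them to switch on proteins fused to the receptor's hormone-binding part. Their own steroid hormones, the brassinosteroids, are perceived at the cell surface by the receptor kinase BRI1 and promote cell expansion. Roots without a fusion protein are the control for effects of the steroid itself.

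The arrays report a signal for each probe set, a group of short probes read as 1 value. A probe set was tested where its mean signal over the 7 arrays was at least 50, which kept 10183 of 22746 after 64 control probe sets were left out. Of those tested, 5290 were paired with 1 gene (5274 genes, 797 of them with a symbol other than the locus tag). Differences are given as log2 of (signal + 16), treated minus untreated, so that 1 is a doubling and dim genes are understated. Errors are standard errors (SE) of the difference of group means, with 2 arrays a group. They come from a fit without the replicate number, so they do not use the pairing and include differences between replicates. With the replicate number in the fit, the SE of AT1G26390 was 0.29 in place of 1.31. For AZG1 it was 0.19 in place of 0.42, and for AT1G19430 0.14 in place of 0.15.

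No gene of the wild type root passed the test for a response to dexamethasone. At a Benjamini-Hochberg adjusted p of 0.05 limma called 0 of 10183 probe sets (0%), and again 0 (0%) when the replicate number was added as a block. At an unadjusted p of 0.05 there were 19 probe sets (0.187%) without the block and 115 (1.13%) with it. Locus AT1G19430 had the smallest unadjusted p without the block, 0.0117, with a limma adjusted p of 1.00. With the block the smallest belonged to AT2G31945, at 0.00447, and its adjusted p was again 1.00. For any single gene an exact permutation test of 2 arrays against 2 cannot go below 0.333, so all p values here come from limma's fit across genes.

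The steroid differences were small beside the differences between replicates. The size of the log2 difference had a median of 0.122 in the replicate 1 pair and 0.157 in the replicate 2 pair, and 0.0853 for the mean of both, in which opposite signs partly cancel. The same roots differed more by replicate. Replicate 2 against replicate 1 gave a median size of 0.203 in untreated and 0.261 in treated wild type. At the 99th percentile the single pairs reached 0.574 and 0.765 and their mean 0.416, whereas the replicate difference, also between single arrays, reached 1.17 in untreated and 1.46 in treated roots. A difference of group means of 0.5 or more was found for 36 probe sets (0.354%), and of 1 or more for 0 (0%).

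**Figure D1:**
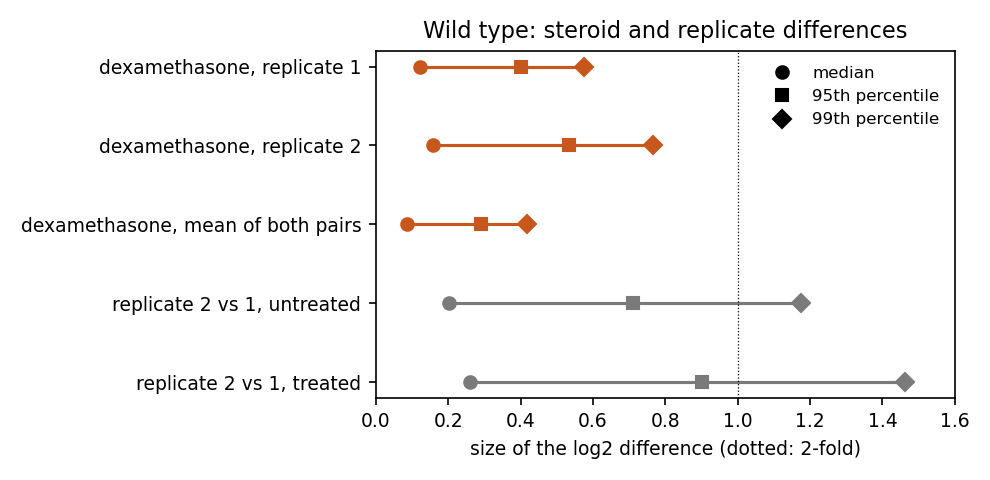
Size of the log2 difference over 10183 probe sets (horizontal axis, log2 units, dotted line at a doubling), with the median, the 95th and the 99th percentile. Orange marks treated minus untreated wild type within each replicate and as the mean of both, grey marks replicate 2 minus replicate 1. The single pairs have medians of 0.122 and 0.157, against 0.203 and 0.261 between replicates.

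The intervals say what size of response the arrays can still hold. The 95% interval lay wholly within a doubling either way for 9030 probe sets (88.7%), and with the replicate block for 10090 (99.1%). A narrower band of 0.5 either way held 2295 intervals (22.5%), or 6583 (64.6%) with the block. For the other probe sets the interval reached beyond 0.5 in at least 1 direction. The median SE over all tested probe sets was 0.209.

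Both pairs did not move alike across genes. Of the 10183 probe sets, 1967 (19.3%) were higher in both treated arrays, 2107 (20.7%) were lower in both, 6080 (59.7%) differed in opposite directions and 29 (0.285%) had a difference of 0 in a pair. The sign was thus the same in 4074 (40%). The pairs share no array, and their differences had a Pearson correlation of -0.27 and a Spearman correlation of -0.26 across probe sets, which are not independent replicates. The spread (SD) of the mean of both pairs, 0.142, was below that of 0.5 times their difference, 0.185. The opposition was present at every brightness, from a correlation of -0.21 over the 2547 dimmest probe sets to -0.33 over the 2546 brightest.

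At 0.25 or more in both pairs, 63 probe sets (0.619%) were higher and 103 (1.01%) were lower in the treated roots, and 583 (5.73%) went opposite ways. At 0.5 or more in both, 1 was higher (0.00982%), 1 was lower (0.00982%) and 35 (0.344%) were opposite, so that 2 (0.0196%) were alike. Taken singly, 212 (2.08%) reached that size in replicate 1 and 623 (6.12%) in replicate 2. Of these 35, 28 (0.275%) were higher with dexamethasone in replicate 1 and lower in replicate 2, and 7 (0.0687%) were the reverse. The probe set that was higher, 254259_s_at, is paired with no gene in the annotation used, and the one that was lower reads AZG1.

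**Figure D2:**
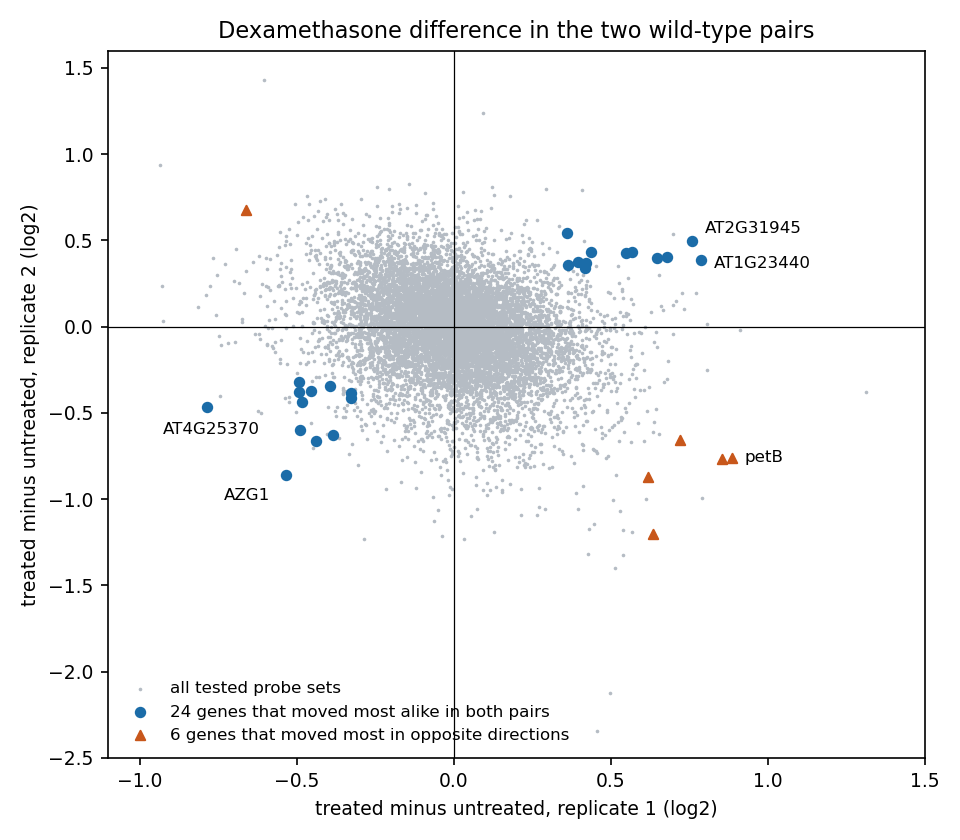
Treated minus untreated wild type in replicate 1 (horizontal axis) and replicate 2 (vertical axis), in log2 units, 1 grey point a probe set. Blue circles are the 24 genes most alike in both pairs and orange triangles 6 genes most opposite. The cloud leans from upper left to lower right (Pearson correlation -0.27), and 2 probe sets reach 0.5 in the same direction in both pairs against 35 in opposite directions.

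Control transcripts moved with this opposition. The array carries probe sets for the 3' and the 5' end of actin, GAPDH and ubiquitin, and the ratio of the ends is a measure of RNA integrity and labelling. The first actin ratio was 0.528 untreated and 0.251 treated in replicate 1, and 0.346 untreated and 0.876 treated in replicate 2. The second ubiquitin ratio ran the same way, from 2.24 to 1.88 in replicate 1 and from 2.33 to 2.82 in replicate 2. Of 6 such control ratios, 5 were lower in the treated array of replicate 1 and 6 were higher in the treated array of replicate 2. The exception was the first ubiquitin ratio, which was higher with the steroid in both, at 1.25 and 1.44 in replicate 1 and at 1.77 and 1.91 in replicate 2. With the first actin ratio as a term in the fit limma still called 0 probe sets, and with that ratio and the replicate block together it called 37, on 1 residual degree of freedom. The other 5 ratios with the block gave 0 to 2 calls. The part of RNA quality in single genes was not tested.

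The replicate 2 pair of the ANR1-GR line gives 1 more treated and untreated pair. There all 6 control ratios were lower in the treated array, the first actin ratio being 1.59 untreated and 0.388 treated. Across probe sets the wild-type replicate 1 pair correlated at 0.20 with the line's pair, and the wild-type replicate 2 pair at -0.69. The sign matched the line's pair in 57.5% of probe sets for replicate 1 and in 26.2% for replicate 2. The line's fusion protein can respond to the steroid, so its pair is given beside the wild type and not as a repeat of it. An interaction of both responses in limma rests on the line's 1 treated array. Without the block it also sets a replicate 2 array against untreated arrays of both replicates, so no count is read from it.

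**Figure D3:**
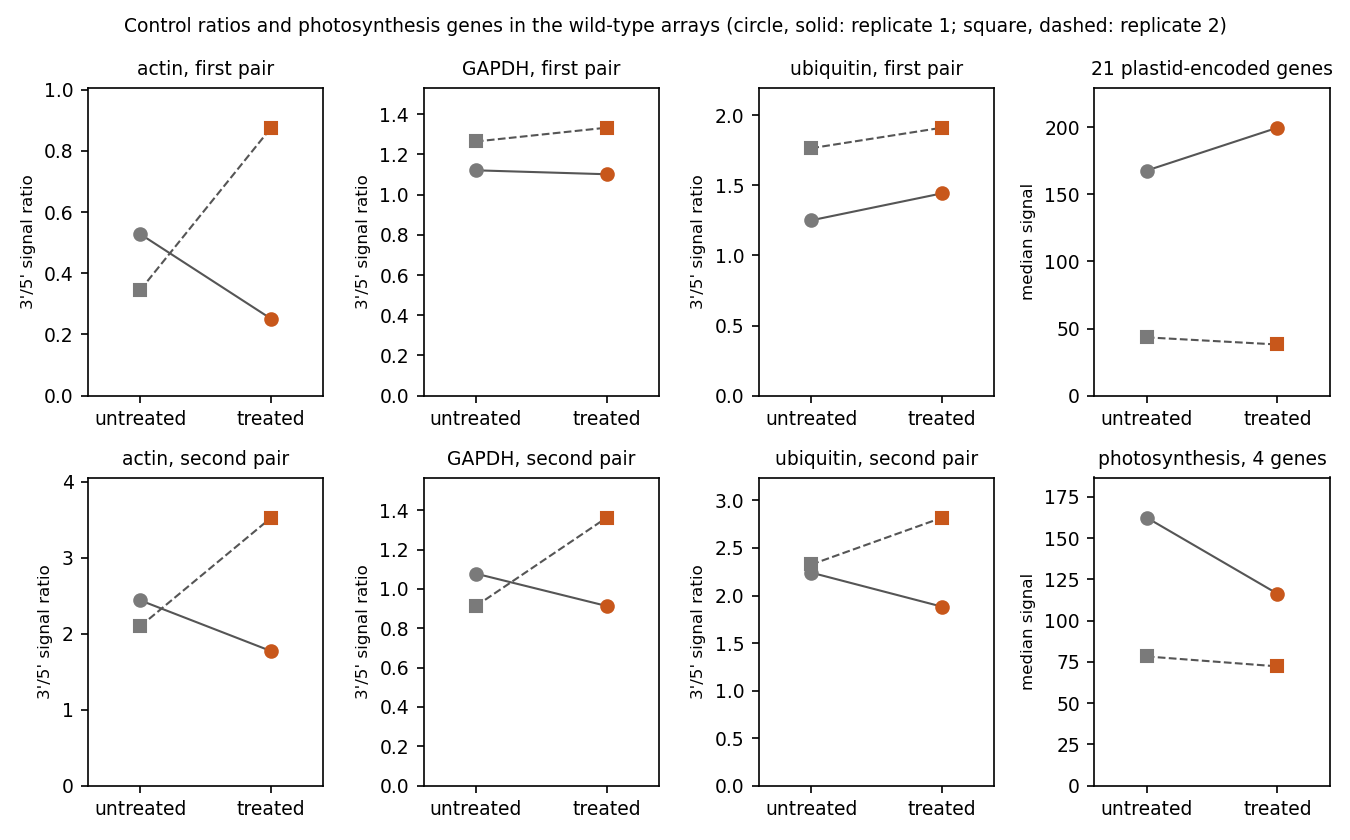
Ratio of 3' to 5' signal for both probe set pairs of actin, GAPDH and ubiquitin (left 6 panels) and the median signal of 21 plastid-encoded and 4 nuclear photosynthesis genes (right panels) in the 4 wild-type arrays, untreated in grey and treated in orange. Circles with solid lines are replicate 1 and squares with dashed lines replicate 2. The lines of 5 ratios run down in replicate 1 and up in replicate 2.

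The genes that were most alike in both pairs were ranked by the smaller of their 2 differences, 12 in each direction, and none of the 24 passed the test. They are described here because they differ in the same direction in both replicates, and their values are those of the ranking. Among the 12 that were lower, 10 had both treated arrays below both untreated arrays, a pattern found over all tested probe sets in 793 (7.79%). Among the 12 that were higher, 5 had both treated arrays above both untreated ones, against 690 (6.78%) overall. The ranking used these values, so nothing follows from those counts.

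AZG1 (AT3G10960), a plasma membrane carrier of purines such as adenine and guanine, was lower in treated roots in both pairs. Its signals were 133.8 and 100.2 without dexamethasone in replicates 1 and 2, and 87.5 and 47.9 with it. Both treated arrays lay below both untreated arrays. The log2 differences were -0.53 and -0.86, with a mean of -0.70 ± 0.42 (SE). In the ANR1-GR line the treated array was higher than the untreated one of the same replicate, by 1.13.

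PFI (AT1G71440), a tubulin-folding cofactor that helps to build the microtubule subunits, had signals of 68.7 and 61.8 in untreated roots and 45.8 and 44.0 in treated roots. The groups did not overlap, and the mean difference was -0.41 ± 0.18. PFI was the 1 gene of the 12 lower ones that was lower in the line too, at -0.31. The other 11 were higher there. Over all probe sets the line's pair had the sign of the wild-type replicate 2 pair in 26.2%, so the count is a description.

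Most of the remaining lower genes carry a locus tag and no symbol in the annotation used. AT1G19430 went from 122.8 to 82.9 in replicate 1 and from 119.0 to 73.1 in replicate 2, a mean of -0.54 ± 0.15. AT3G07350 went from 98.2 to 68.3 and from 115.6 to 67.0, a mean of -0.55 ± 0.16. In both genes the untreated arrays lay close together, and each treated array lay below them. AT4G25370 read 70.2 and 97.7 untreated against 34 and 66.4 treated, and AT5G25270 read 71.0 and 87.3 against 50.7 and 50.9. AT1G07310 read 165.6 and 162.5 against 113.9 and 116.0. In all of these the groups did not overlap. The others were AT3G52960, AT1G43690, AT5G19290, AT5G63190 and AT5G48340, and AT5G19290 and AT5G48340 were those with overlapping groups. Over the 12 genes the mean differences ran from -0.70 to -0.36.

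Among the genes that were higher in both pairs, AT1G23440 read 254.1 and 298.3 in untreated and 450.3 and 395.2 in treated roots, a mean of 0.59 ± 0.18. AT3G24480 read 66.5 and 61.9 against 116.1 and 87.2, a mean of 0.54 ± 0.21. AT1G73120 read 100.1 and 85.2 against 156.0 and 120.4, a mean of 0.50 ± 0.19. In each of them both treated arrays exceeded both untreated arrays. The same held for AT2G24830, at 52.8 and 47.7 against 84.6 and 69.8, and for AT5G55900, at 39.1 and 41.5 against 57.7 and 58.4.

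In the other 7 the replicate outweighed the steroid. AT2G31945 had the highest smaller difference, 0.50, but its untreated signals were 63.7 and 172.9 and its treated ones 118.9 and 250.6, so the groups overlapped. AT1G26390 read 79.2 and 106.3 in replicate 1 and 391.2 and 577.3 in replicate 2, with a mean of 0.45 ± 1.31. AT5G37990 read 33.9 and 62.2 in replicate 1 and 121.2 and 165.1 in replicate 2. In the fit without the replicate block the sign of AT1G26390 and AT5G37990 depended on single arrays. Without the untreated array of replicate 1 the difference was -0.60 for AT1G26390 and -0.21 for AT5G37990, and without the treated array of replicate 2 it was -0.69 and -0.08. With the block, which keeps the pairs, both stayed positive whichever wild-type array was left out. The values ran from 0.09 to 0.81 for AT1G26390 and from 0.27 to 0.78 for AT5G37990. Both genes were ranked for being higher in both pairs, so the positive sign there is largely built in. AT1G30870, AT1G14550, AT5G40590 and AT5G03380 completed the 12, with differences in both pairs between 0.34 and 0.44. In the ANR1-GR line 5 of the 12 were higher with the steroid and 7 lower. Over all probe sets 26.2% had the same sign there as in the wild-type replicate 2 pair.

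**Figure D4:**
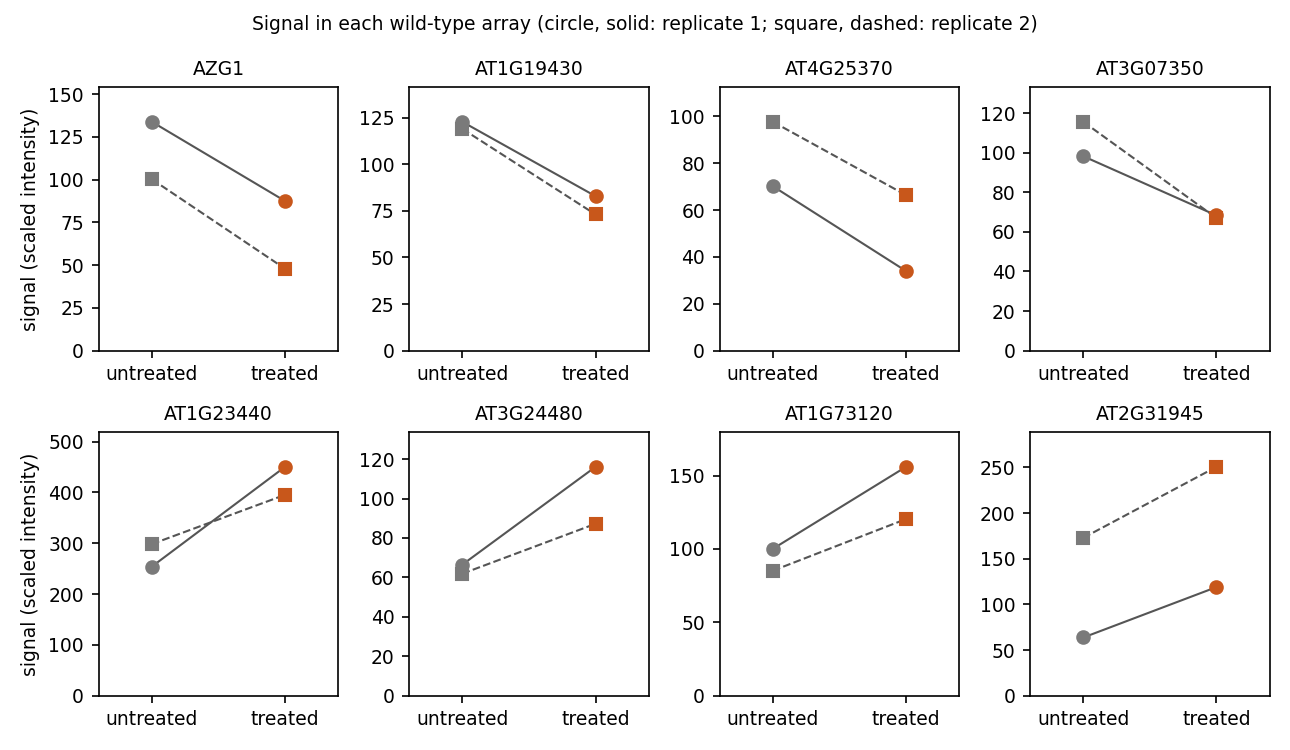
Signals of named genes in the 4 wild-type arrays, untreated in grey and treated in orange (vertical axes, scaled intensity from 0), with replicate 1 as circles on solid lines and replicate 2 as squares on dashed lines. The genes were chosen for differing the same way in both pairs. Both treated arrays lie below both untreated ones for AZG1 and above them for AT1G23440. For AT2G31945 replicate 2 stands above replicate 1 in both groups.

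Genes with a symbol other than the locus tag were ranked in the same way, 6 in each direction. Those already named, AZG1 and PFI among them, were left out. BGLU46 (AT1G61820), a beta-glucosidase that acts on glucosides of lignin precursors, read 284.8 and 205.5 untreated and 352.8 and 368.5 treated. Its pair differences were 0.29 and 0.80, and its mean was 0.54 ± 0.23. MTP11, a manganese transporter, read 275.2 and 324.3 against 342.7 and 383.7. RTE1, which acts with the ethylene receptor ETR1, read 63.4 and 75.7 against 80.9 and 93.7. In BGLU46, MTP11 and RTE1 the treated arrays lay above the untreated ones. All 6 of the higher genes, PDF1A (a peptide deformylase), LSM6A and LSM3A included, were lower with the steroid in the ANR1-GR line. The line's pair shared the sign of the wild-type replicate 2 pair in 26.2% of all probe sets, so this count is a description.

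LSM6A and LSM3A encode subunits of the Sm-like rings that bind RNA in splicing and decay. LSM6A read 109.7 and 118.4 untreated and 133.3 and 156.7 treated. LSM3A read 47.2 and 60.4 against 58.2 and 101.5, a mean of 0.43 ± 0.35. Of the 6 LSM genes tested, these 2 were higher in both pairs and the other 4 went opposite ways, lower in replicate 1 and higher in replicate 2. Over all probe sets, 19.3% were higher in both and 59.7% went opposite ways. LSM3B was the clearest, at 260.2 and 183.7 in replicate 1 and 187.1 and 327.9 in replicate 2.

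On the lower side GH3.17 (AT1G28130), an enzyme that joins auxin to an amino acid, read 216.1 and 277.5 untreated and 169.0 and 219.9 treated. Its pair differences of -0.33 and -0.32 were nearly equal, but the groups overlapped, and the mean was -0.32 ± 0.21. DAYSLEEPER, a protein derived from a transposase that plants need for normal growth, read 96.7 and 100.5 against 75.8 and 64.4. STZ, a zinc finger repressor in salt and cold stress, read 240.3 and 168.7 against 195.9 and 131.7, a mean of -0.30 ± 0.46. SETH2, of the synthesis of membrane anchors, SWEETIE, of sugar metabolism, and DIM1A, a ribosomal RNA methylase, were the others. Of the 6, 3 had groups that did not overlap, as had 7.79% of all probe sets with the treated arrays lower. The ranking used these values, so the count is a description.

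The pathways that a steroid could touch were read from 20 gene lists. Of their 259 genes paired with a probe set, 110 were tested in 18 lists. Limma called 0 of the 110, as it called 0% of all probe sets, and with an unadjusted p of 0.05 the count was 0 without the block, beside 0.187% of all probe sets, and 3 with it, beside 1.13%. The median over all tested probe sets was -0.0020, and each list's median below is a description of its members. Counts by direction stand beside 19.3% of all probe sets higher in both pairs, 20.7% lower in both and 59.7% opposite. Counts of intervals within a doubling stand beside 88.7% of all probe sets.

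Of brassinosteroid perception and signalling, only 4 listed genes were paired with a probe set in the annotation used. Of these genes 3 were tested, and all 3 intervals lay within a doubling. Most of the pathway was therefore not read. BIM1, a partner of the transcription factor BES1, read 99.5 and 100.4 untreated and 100.5 and 77.3 treated. BRH1, a RING protein named for its response to brassinosteroid, read 188.5 and 192.4 against 191.6 and 219.3. ARL, a cell expansion gene that brassinosteroid induces, read 148.0 and 175.9 against 148.4 and 195.4. In replicate 1 their differences were between 0.00 and 0.02. In replicate 2 BRH1 and ARL were higher by 0.18 and 0.14, and BIM1 was lower, at -0.32.

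BAT1, an acyltransferase that modifies brassinosteroids, was the 1 listed gene of their synthesis and breakdown paired with a probe set, and it was tested. It read 253.3 and 356.7 untreated and 232.4 and 335.2 treated, a mean of -0.10 ± 0.26. Sterol glucosyltransferases, which attach sugar to plant sterols, were at -0.03 ± 0.16 for SGT and at 0.05 ± 0.16 for UGT80B1. Only 1 listed gene of sterol synthesis was paired with a probe set in the annotation used, and it did not pass the filter on signal.

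Detoxification genes, which respond in plants to many foreign compounds, were measured in 3 lists. All 11 glutathione transferases, enzymes that tag foreign compounds with glutathione, had mean differences between -0.06 and 0.12, with a median of 0.01. Their intervals lay within a doubling for 10 of the 11. Of the 11, 8 were lower with the steroid in replicate 1 and 8 were higher in replicate 2. Over all 10183 probe sets the same counts were 5152 and 5009. GSTU22, the brightest, read 1304.4 untreated and 1077.9 treated in replicate 1, and 1540.6 and 1882.5 in replicate 2. The 7 cytochromes of the P450 family tested were all of the CYP71B group. They had means from 0.04 to 0.20, 4 of them higher in both pairs and 3 opposite, with all 7 intervals within a doubling.

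The UDP-glycosyltransferases, which attach sugars to hormones, phenolics and foreign compounds, numbered 22 tested of 51 in the annotation. Of these, 3 were higher in both pairs, 9 were lower in both and 10 went opposite ways, with a median of -0.03. The interval lay within a doubling for 16 of the 22. GT72B1, which adds glucose to chlorinated phenols, read 550.7 and 659.8 untreated and 471.8 and 563.3 treated, with -0.22 in both pairs. UGT84A3 read 79.3 and 93.2 against 64.3 and 73.2, a mean of -0.27 ± 0.17. UGT76B1, which acts on a defence-related amino acid derivative, was higher, at 407.6 and 543.9 against 471.2 and 714.5. The sizes were below the SE of many members: UGT72E1, lowest at -0.45, had an SE of 1.12.

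Heat shock proteins and chaperones were measured by 4 genes, all with intervals within a doubling. Hop1 and Hop2 are co-chaperones that join Hsp70 to Hsp90, the partner of steroid receptors in animals. Hop1 read 155.6 and 134.6 untreated and 161.9 and 133.6 treated. Hop2 read 234.1 and 247.8 against 313.4 and 208.7, higher in replicate 1 and lower in replicate 2. Hsp70-2 was lower in both pairs, at -0.12, and Fes1A, a cofactor of Hsp70, was higher by 0.20 in replicate 1 and at 0.00 in replicate 2.

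Genes that respond to touch and stress were listed because seedlings of both groups had been handled. All 3 calmodulin-like genes were lower with the steroid in replicate 1 and higher in replicate 2. CML23, of this calcium-binding family, went from 91.5 to 54.7 in replicate 1 and from 43.4 to 144.0 in replicate 2. All 5 WRKY transcription factors did the opposite, with medians of 0.19 in replicate 1 and -0.13 in replicate 2. The interval lay within a doubling for 3 of these 5. Dehydrins, which protect cells in cold and drought, had signals close together. COR47 read 2307.3 and 2255.1 untreated and 2240.6 and 2353.8 treated, a mean of 0.01 ± 0.13, and LTI30 read 1981.0 and 2198.1 against 2087.3 and 2410.0.

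Among hormone genes, LBD16, a factor that auxin induces as lateral roots form, read 78.6 and 50.1 untreated and 91.2 and 95.6 treated. Both treated arrays were higher, by 0.18 and 0.76, and the mean was 0.47 ± 0.24. The other 4 auxin genes were GH3.17, described above, WES1, GH3.3 and IAA18, with means from -0.32 to 0.01. The gibberellin receptor gene GID1B read 125.0 and 138.3 in replicate 1 and 151.1 and 78.3 in replicate 2. The clock gene GI also went opposite ways, at 101.4 and 123.4 in replicate 1 and at 194.9 and 111.4 in replicate 2. Of 6 genes of jasmonate and defence, 0 moved alike in both pairs, beside 40% of all probe sets.

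Nitrate and peptide transporter relatives were of interest because all plants were starved of nitrogen. The 6 tested had a median of -0.10, with 2 lower in both pairs and 4 opposite, and all 6 intervals lay within a doubling. GTR1 and GTR2, which carry glucosinolates, had means of -0.08 ± 0.16 and -0.12 ± 0.18. AT1G59740, the member with the smallest limma p, was lower in both pairs, at -0.15 and -0.17. AT2G26690 read 175.5 and 117.8 untreated and 146.2 and 141.6 treated, a mean of 0.00 ± 0.28.

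**Figure D5:**
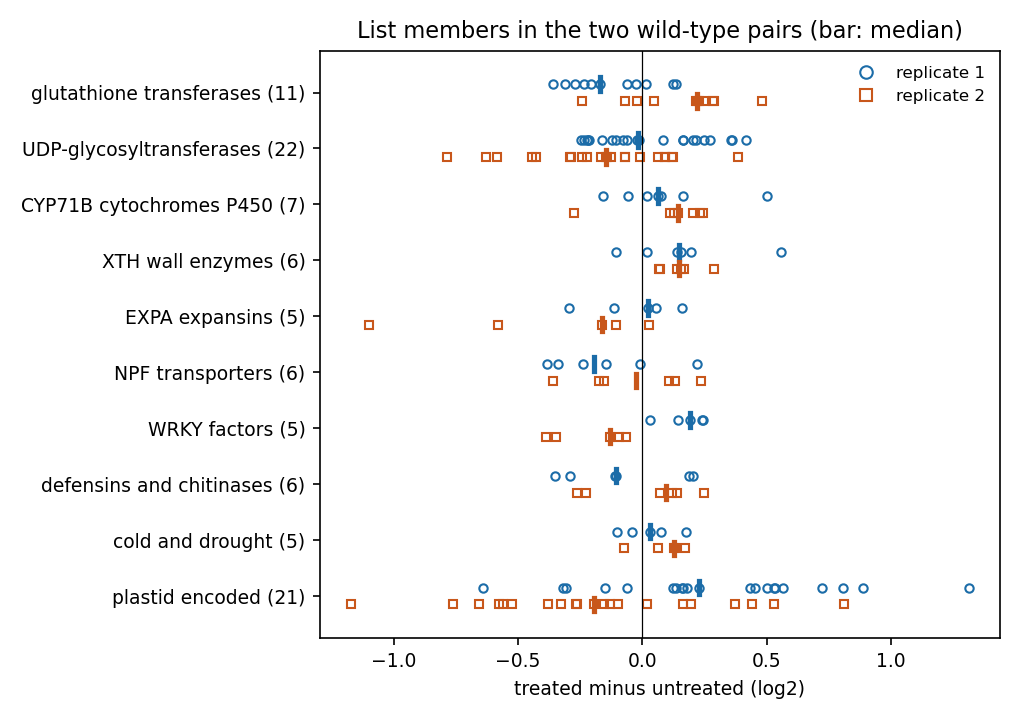
Log2 difference, treated minus untreated (horizontal axis), of each tested member of 10 lists and families, with replicate 1 as blue circles, replicate 2 as orange squares and a bar at each median. The WRKY factors lie above 0 in replicate 1 and below 0 in replicate 2, the XTH medians are 0.15 in both, and 0 members passed limma's test.

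Plastid genes went opposite ways in the pairs. Of 21 plastid-encoded genes tested, 17 differed in opposite directions, beside 59.7% of all probe sets. Of the others, 3 were higher in both pairs and 1 was lower in both. Over all 21, 16 were higher with dexamethasone in replicate 1 and 14 were lower in replicate 2. Of all 10183 probe sets, 5019 were higher in replicate 1 and 5157 lower in replicate 2. The medians were 0.23 in replicate 1 and -0.19 in replicate 2. The members with the smallest limma p, rps3, psbM and psbI, differed the same way in both pairs. The gene petB, of the cytochrome complex of photosynthesis, read 400.6 and 754.2 in replicate 1 and 173.0 and 95.4 in replicate 2. The gene ndhI, for a subunit of the plastid NADH dehydrogenase-like complex, read 75.8 and 211.9 in replicate 1 and 21.5 and 12.8 in replicate 2, and its difference of 1.31 was the 1 value of 1 or more in replicate 1. The median signals of the plastid genes in replicate 2 were 43.4 untreated and 38.1 treated, against 167.6 and 199.5 in replicate 1. Not all were dim there, as psbM read 722.5 untreated and 599.5 treated. The filter on mean signal could keep a gene through its replicate 1 arrays, as it did ndhI, so these medians are a description. None of the 21 intervals lay within a doubling.

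Nuclear genes of photosynthesis were also measured, as a check on tissue. LHCB4.1, a light-harvesting protein, read 119.5 and 83.9 untreated and 101.1 and 63.9 treated, and RCA, the activase of Rubisco, read 229.9 and 121.1 against 234.6 and 103.6. Their list had median signals of 162.4 and 78.3 untreated and 116.3 and 72.3 treated in replicates 1 and 2. The interval lay within a doubling for 1 of its 4 genes. EXPA7 and EXPA18 are expansins of root hairs. EXPA7 read 112.6 and 127.6 in replicate 1 and 65.0 and 38.2 in replicate 2. The last value was near the median of all probe sets on that array, 36.6. EXPA18 read 193.6 and 177.4 in replicate 1 and 307.1 and 313.1 in replicate 2. In pooled tissue a smaller share of a cell type and less RNA per cell cannot be told apart.

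Gene families were read after the annotation was seen, as 24 families with 163 tested members. Their medians ran from -0.21 to 0.15, and 0 members passed. The xyloglucan endotransglucosylase and hydrolase genes (XTH), which loosen and join cell wall polymers, had a median of 0.15 in each pair. Of 6 members tested, 5 were higher in both, as were 19.3% of all probe sets. XTH19 read 307.3 and 308.0 untreated and 354.2 and 348.1 treated, and XTH18 read 549.4 and 616.7 against 814.9 and 648.9, a mean of 0.31 ± 0.21. XTH16 read 52.8 and 61.0 against 60.6 and 78. All 6 intervals lay within a doubling, as did 88.7% of all probe sets.

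In some other families the members went opposite ways in the pairs, as did 59.7% of all probe sets. All 8 autophagy genes (ATG) did so, with medians of -0.08 in replicate 1 and 0.34 in replicate 2. ATG8E read 393.9 and 301.4 in replicate 1 and 413.0 and 611.2 in replicate 2. All 5 genes of RNA polymerase II subunits (NRPB) did likewise, NRPB12 reading 312.9 and 263.2 in replicate 1 and 255.7 and 368.4 in replicate 2. Alpha-expansins had the lowest median, -0.21, of which EXPA4 was lowest at -0.52 ± 0.50, with 248.0 and 258.1 in replicate 1 and 417.5 and 186.7 in replicate 2. Ubiquitin-specific proteases (UBP) were lower in both pairs in 5 of 8, and serine carboxypeptidase-like genes (SCPL) in 5 of 10, beside 20.7% of all probe sets.

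Of the single genes, 6 were picked for the largest opposite differences in both pairs. AT3G16330 read 34.4 and 75.1 in replicate 1 and 69.3 and 34.1 in replicate 2, log2 differences of 0.85 and -0.77. AT5G16110 read 173.5 and 278.4 in replicate 1 and 368.2 and 151.2 in replicate 2. AT1G01170 was the reverse, from 164.9 to 98.3 in replicate 1 and from 78.2 to 134.7 in replicate 2. The difference of group means was 0.04 ± 0.44 for AT3G16330, 0.01 ± 0.36 for AT1G01170 and -0.28 ± 0.49 for AT5G16110. The largest difference of group means among the tested probe sets, -0.94 for probe set 265633_at, also came from 1 pair, with 194.6 and 273.0 in replicate 1 and 192.6 and 25.1 in replicate 2.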

How the data were processed

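Root RNA on one-colour ATH1 arrays was read from the deposited table. The authors' values are linear intensity, not logged, with a 2% trimmed mean of 100 on each array. How probes were summarised is not given in the sources used here. Precision is limited by the number of arrays.

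The members, lists and rules were chosen with earlier results of these data known. The deposited scale was kept, signals were read as log2(signal + 16), and limma 3.58.1 in R 4.3.3 fitted the 4 groups over 7 arrays (lmFit, eBayes with a trend, 3 residual degrees of freedom). P values were adjusted by Benjamini-Hochberg over all 10183 probe sets. The code of the fit was run on simulated data with independent noise. Those data lacked the opposition between the pairs, so the run bears on the code only. Named genes were the 12 per direction with the largest smaller-of-both-pairs difference and the extremes of the group means. The rule for lists was up to 3 members by p. The text leaves out some of those and prints other members as examples. Symbol genes, families and opposite genes were chosen after values or annotation were seen. Plastid genes were matched by RefSeq chromosome.

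Names came from the platform annotation (13513 probe sets with 1 gene, 503 with several, 8794 not listed), with 13436 matched to RefSeq (TAIR10.1). Replicate numbers paired the arrays: deviations from group means of same-numbered arrays correlated at 0.622, 0.472 and 0.826. Alternatives were the block, scaling, pseudocount, filter, trend, control ratios as a term and each array left out.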

Additional observations from a re-analysis of the deposited data

How the results depend on the processing

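The count of 0 called probe sets held under every scaling, filter and added constant tried, and with the replicate block alone. It became 37 with the first actin ratio as a term and the replicate block (1 residual degree of freedom; 11 higher, 26 lower, 6 of them with opposite signs in the pairs), and 2 with the second actin ratio and the block, an alternative added after seeing the data, as were the other 4 control ratios, which gave 0 with the block. Leaving out each array gave 0 to 2. The 2 came without the untreated wild-type array of replicate 1 in the paired fit (265633_at and 246935_at, opposite in sign between the pairs). The replicate block alone changed no call. At an unadjusted p of 0.05 the count of 19 became 353 with no filter, 115 with the block, 163 with the block in the wild type alone, 56 with the actin ratio and 765 with that ratio and the block.

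The median size of the difference, 0.0853, became 0.121 with the ubiquitin ratio and the block, and 0.0853 to 0.176 with an array left out (in the paired fit 0.165 and 0.128 without the untreated and 0.119 without the treated wild-type array, replicates 1, 2 and 1). The count of 2 probe sets that moved 0.5 or more alike became 4 centred on the median, 12 with 1 added, 0 with 64 added, 1 with a filter at 100 and 18 with no filter. It has no value where a wild-type array is left out or only the model changes. The share of intervals within a doubling ran from 67.7% to 100%. Of 40 named genes and probe sets, 13 were called with the first actin ratio and the block, beside 37 of all 10183 probe sets. AZG1, AT1G23440 and AT2G31945 were among the 13. The 40 were ranked on the same pair differences, so nothing follows from that count. Without the block, leaving out an array of the ANR1-GR line cannot change the estimate, so the sign of those values was fixed. Leaving out an array kept the sign in 435 of 440 values, those included. The exceptions were AT1G26390 (-0.69 to 1.59), AT5G37990 (-0.21 to 1.25) and DIM1A (-0.78 to 0.0315, the latter without the treated array of replicate 2). All 5 came from fits without the block. With the replicate block 0 of 160 values with a wild-type array left out changed sign (AT5G37990 0.27 to 0.78, AT1G26390 0.09 to 0.81). That fit leans on the pair left whole, and all 40 were picked for the same sign in both pairs. Nothing therefore follows from that count. With the ubiquitin ratio and the block AT1G26390 was at -0.18 and STZ at 0.19. The cause was not tested.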
